A study of Arabidopsis thaliana with 62 samples.

Results

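Seedlings of the Arabidopsis thaliana line chl27 were compared with the wild type Col0 in how their plastid DNA was shared out between the membranes and the stroma of the chloroplast. The assay, called SOLINA in the labels, separates crosslinked chloroplasts into a membrane and a stroma fraction and sequences the DNA of each. Its values are the coverage at every plastid position. The comparison holds 16 of the 62 samples of the series: 4 libraries each of chl27 membrane, chl27 stroma, Col0 membrane and Col0 stroma, taken by title from the table that also holds sig2-2 and chlm. All groups were untreated seedlings of 4 days by their titles (the protocol gives 4 to 5 days), grown on plates under continuous light of 100 µmol m-2 s-1. Per the labels' protocols, 50 seedlings were pooled per harvest and fixed whole in 4% formaldehyde for 4 h before the chloroplasts were pelleted. All 16 samples, chl27 included, carry wild type in their genotype field, so the title and the line name were followed. No allele of chl27 is given, and its gene is nuclear, so plastid coverage cannot check the genotype. Nothing in the labels says that replicates came from separate cultures, so p-values here measure the spread between these libraries.

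CHL27 is a subunit of the cyclase that closes the fifth ring of the chlorophyll precursor, acting on Mg-protoporphyrin IX monomethyl ester, and plants with little of it are pale. Chlorophyll synthesis starts from the glutamyl form of the plastid tRNA encoded by trnE, which also serves translation. Plastid DNA lies in nucleoids attached to membranes. Its genes are read by a plastid-encoded polymerase, which serves the photosynthesis, rRNA and most tRNA genes, and by a nuclear-encoded polymerase, which serves mainly housekeeping genes.

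The calls between the lines lay in the rRNA and tRNA genes. In Col0, 4 of 4 rRNA genes and 20 of 30 tRNA genes had more coverage in membrane than in stroma at a limma adjusted p of 0.05, beside 26 of all 113 genes (23%). In chl27 this held for 0 of 4 and 5 of 30, beside 5 of all 113 genes (4.42%). Without the term for replicate number these counts were 0 and 11 in Col0, beside 12 of all 113 genes. In chl27 they were then 0 and 0, beside 0 of all 113 genes. The log2 membrane/stroma ratio was lower in chl27 than in Col0 for 13 of 113 genes (11.5% of those tested), 4 rRNA and 9 tRNA genes, and for no protein-coding gene. These 13 calls end if a single library, chl27 stroma replicate 2, is left out, without the term for replicate number, with that term fitted within each line, and with only the 16 libraries in the fit. Within the membrane fraction alone, and within the stroma fraction alone, 0 genes passed (0.0%), though 14 did in membrane with all libraries numbered 2 left out.

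Mean coverage of the 16 libraries ran from 299 to 4528 reads per position, and was lower in membrane than in stroma libraries. It was 989 ± 537 in chl27 membrane and 656 ± 243 in Col0 membrane, against 2933 ± 915 in chl27 stroma and 3348 ± 1075 in Col0 stroma (mean ± SD, n = 4 each). The lowest mean coverage of any tested gene in any library was 79.2, at trnH in chl27 membrane replicate 2. One fragment adds to the coverage of many neighbouring positions, so the spread between libraries is the only measure of precision used. Each library was divided by its own mean, and values are therefore relative to the rest of the same library's plastid genome (relative coverage). A lower absolute amount of plastid DNA in a fraction cannot be seen on this scale.

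Of all the libraries, chl27 stroma replicate 2 stood apart. Among the 8 stroma libraries of both lines it had the highest relative coverage at 42 genes and the lowest at 57, of 113. Its mean coverage of 2786 lay between those of the other chl27 stroma libraries, 1731 to 3867. In both lines the log2 membrane/stroma ratio varied most over genes in pair 2. In chl27 pair 2, which holds chl27 stroma replicate 2, its SD was 0.355, against 0.124 to 0.159 in the other chl27 pairs. In Col0 pair 2 it was 0.337, against 0.244 to 0.270 in the other Col0 pairs. Replicate number took up 74.3% of the spread within groups, and it was part of the limma fits below, as a term shared by all lines, unless stated otherwise. The calls for the ratio and the named stroma estimates are given with and without chl27 stroma replicate 2, and its part in the results beyond those values was not tested.

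The rRNA operon is among the most transcribed units of the plastid genome and lies in its inverted repeat. It is taken here from rrn16S to rrn4.5S, with trnI, trnA and rrn23S between them. Its coverage divided by that of the single-copy regions was 1.03, 1.59, 1.02 and 0.728 in chl27 membrane replicates 1 to 4, and 1.35, 1.91, 1.33 and 0.871 in Col0 membrane. In each of the 4 pairs of the same number the chl27 membrane library was the lower, while the ranges of the lines overlapped. In stroma it was 0.897, 2.18, 0.862 and 0.755 in chl27, and 0.915, 0.933, 0.834 and 0.622 in Col0. One chl27 stroma library, replicate 2, was far above all others, and the remaining chl27 values lay within the Col0 range. By exact two-sided permutation of the line labels (n = 4 against 4), the log2 difference was -0.33 in membrane (p = 0.314) and 0.38 in stroma (p = 0.486), and neither passed 0.05. Within pairs of the same number the membrane differences were -0.39, -0.27, -0.39 and -0.26, with a mean of -0.33 ± 0.07 (SD, n = 4), all of 1 sign and larger than their spread. Exact sign flips of these 4 pairs gave p = 0.125, the smallest they allow. In stroma the pair differences were -0.03, 1.22, 0.05 and 0.28. Without chl27 stroma replicate 2 the stroma difference was 0.04.

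**Figure D1:**
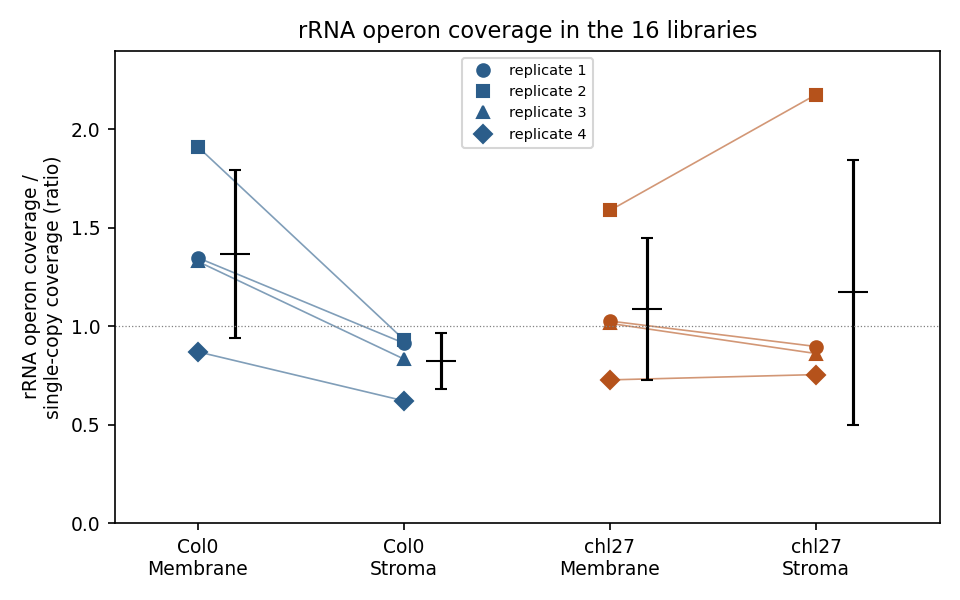
Coverage of the rRNA operon divided by coverage of the single-copy regions in each of the 16 libraries, by line and fraction. Symbols give the replicate number, lines join the membrane and stroma libraries of 1 number, and black bars are the mean ± SD of 4 libraries; all 4 Col0 lines fall from membrane to stroma, and chl27 stroma replicate 2 stands alone at 2.18.

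Set against each other within a replicate number, the fractions separated the lines. The log2 membrane/stroma ratio of the operon was 0.56, 1.04, 0.67 and 0.49 in Col0 and 0.19, -0.45, 0.24 and -0.05 in chl27. Every chl27 value lay below every Col0 value. The means were 0.69 ± 0.24 in Col0 and -0.02 ± 0.32 in chl27 (SD, n = 4), a difference of -0.71 (exact two-sided permutation p = 0.0286, the smallest that 4 against 4 allows). Adjusted over the 9 single-value tests run (3 measures in 3 comparisons), the exact p was 0.129. Without pair 2 of chl27 the difference was -0.56, with the groups still apart, but 3 against 4 values cannot give an exact p under 0.0571.

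Across gene bodies, the difference of the log2 membrane/stroma ratio between the lines passed a limma adjusted p of 0.05 for 13 of 113 genes, which is 11.5% of those tested. All 13 were lower in chl27, and 0 were higher. Another 34 genes had an unadjusted p under 0.05 only, out of 47 in all. The called genes were the 5 genes of the rRNA operon, the rRNA gene ArthCr091, and 7 further tRNA genes: trnE, trnY, trnN (Arthct120), trnF, trnL (Arthct122), trnV (Arthct121) and trnQ. Values of the operon genes, trnN and this trnV stand for both copies of the inverted repeat, which coverage cannot tell apart, and ArthCr091 lies in the second copy with no exact mirrored partner. The mirrored position of ArthCr091 in the first copy lies just beyond rrn4.5S, where the operon as taken here ends. Its call is therefore not one at a place apart from the operon. The rule for naming takes the 5 lowest of the called genes, and the other 8 were named after their values were seen. Without chl27 stroma replicate 2, 0 genes passed; their differences, -0.63 to -0.33 with it, were then -0.50 to -0.26, with limma adjusted p from 0.0601 to 0.14. Left out singly, other libraries moved the count too: it was 8 without chl27 membrane replicate 2, 21 without Col0 stroma replicate 4, 32 without chl27 stroma replicate 1 and 28 without chl27 stroma replicate 3. The last 3 counts held 16, 19 and 19 genes lower in chl27 and the rest higher. For trnA, rrn4.5S, trnE, trnY, ArthCr091 and trnQ, 1 of the 16 libraries ended the call when left out, namely chl27 stroma replicate 2. Without the replicate term 0 genes passed (5 genes at an unadjusted p under 0.05), with the differences themselves the same, -0.63 to -0.33, and a limma adjusted p of 0.466 for all 13. With the replicate term fitted within each line 0 genes passed (limma adjusted p 0.0554 to 0.0882), and 0 passed with only the 16 libraries in the fit (limma adjusted p 0.058 to 0.0976), again at the same differences.

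The gene of the large ribosomal subunit RNA, rrn23S (ArthCr087), had the lowest difference. Its relative coverage was 1.05, 1.55, 1.03 and 0.715 in chl27 membrane and 0.886, 1.86, 0.858 and 0.739 in chl27 stroma, replicates 1 to 4. The Col0 values were 1.33, 1.77, 1.30 and 0.873 in membrane and 0.906, 0.886, 0.831 and 0.603 in stroma. In Col0 each membrane library thus exceeded its stroma partner, and in chl27 2 of 4 did, replicates 1 and 3. The fitted log2 ratio was 0.68 (SE 0.13) in Col0 and 0.05 (SE 0.13) in chl27, and the difference was -0.63 (SE 0.19, limma adjusted p 0.0285).

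For rrn16S (ArthCr086), which encodes the RNA of the small ribosomal subunit, relative coverage was 0.966, 1.49, 0.955 and 0.677 in chl27 membrane and 0.864, 1.81, 0.837 and 0.694 in chl27 stroma. Col0 had 1.24, 1.65, 1.22 and 0.774 in membrane, and 0.865, 0.819, 0.80 and 0.577 in stroma. The pattern was that of rrn23S, with chl27 lower in all 4 membrane pairs and higher in 3 of 4 stroma pairs. The difference of the ratios was -0.63 (SE 0.20, limma adjusted p 0.0407). Of the 16 libraries, 10 ended this call when left out singly.

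The tRNA genes trnI (ArthCt107) and trnA (ArthCt108) lie in the spacer between rrn16S and rrn23S. Relative coverage of trnA was 1.05, 1.40, 1.04 and 0.832 in chl27 membrane against 1.28, 1.76, 1.31 and 0.978 in Col0 membrane, and 0.934, 1.82, 0.906 and 0.823 in chl27 stroma against 0.924, 0.997, 0.890 and 0.728 in Col0 stroma. Here chl27 was lower in all 4 membrane pairs and higher in all 4 stroma pairs. The difference of the ratios was -0.57 (SE 0.15, limma adjusted p 0.0198) for trnA and -0.50 for trnI. The small rRNA gene rrn4.5S (ArthCt109), whose RNA is part of the large ribosomal subunit, had 1.17, 1.63, 1.14 and 0.882 in chl27 membrane and 1.01, 1.68, 0.992 and 0.873 in chl27 stroma. Its Col0 values were 1.53, 1.83, 1.39 and 0.987 in membrane and 1.04, 0.965, 0.915 and 0.713 in stroma, and the difference of the ratios was -0.54 (SE 0.15, limma adjusted p 0.0198).

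Outside the operon, trnE (ArthCt097) had the largest difference among called genes. Its tRNA is the substrate of the first step of tetrapyrrole synthesis. Relative coverage was 1.09, 1.33, 1.14 and 0.975 in chl27 membrane, all below the Col0 membrane values of the same number, 1.44, 1.73, 1.30 and 1.17. In stroma it was 0.896, 1.72, 0.847 and 0.923 in chl27, all above the Col0 values of the same number, 0.805, 1.14, 0.812 and 0.857. Both lines had their highest stroma value in replicate 2. The log2 ratio of same-numbered libraries was 0.84, 0.60, 0.68 and 0.44 in Col0 and 0.28, -0.37, 0.43 and 0.08 in chl27, with no overlap. The fitted difference was -0.54 (SE 0.14, limma adjusted p 0.0198), and -0.41 without chl27 stroma replicate 2 (limma adjusted p 0.0601). Among tRNA genes outside the operon, the lowest estimate was not that of trnE (-0.537). It was that of trnR (ArthCt127), -0.544, which did not pass. The pair values of trnR were 0.54, 0.74, 0.70 and 0.45 in Col0 and 0.23, -0.41, 0.35 and 0.09 in chl27.

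Next to trnE lie trnY and trnD, and trnE, trnY and trnD are read as 1 unit. The difference for trnY (ArthCt096) was -0.43 (SE 0.11, limma adjusted p 0.0198), and that for trnD (ArthCt095) was -0.25 (SE 0.17, limma adjusted p 0.212), which did not pass and was -0.08 without chl27 stroma replicate 2. Together with trnV (ArthCt103) and trnM (ArthCt104) these form a list of 5 genes that depend on sigma factor 2. Of the 5, 2 passed, trnE and trnY, both lower in chl27, beside 11.5% of all genes, and the list's median difference was -0.25. Without chl27 stroma replicate 2 the count was 0 and the median -0.13, and without the replicate term the count was 0. At trnV the difference was -0.06 and at trnM -0.04. At both, membrane coverage exceeded stroma coverage within chl27 (log2 0.21 and 0.40, limma adjusted p 0.0135 and 0.0455). The list held 1 such call without chl27 stroma replicate 2, and 0 without the replicate term.

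Among all 30 tRNA genes tested, 9 passed, all lower in chl27, and 26 had an estimate below 0. Over all 113 genes these were 13 (11.5%) and 53. The median difference of the tRNA genes was -0.26, against 0.03 for all genes. Without chl27 stroma replicate 2 it was -0.21 with 0 calls. The 23 tRNA genes of the single-copy regions had a median of -0.23, and 5 of them passed. For trnQ (ArthCt090) the log2 ratio was 0.61, 0.47, 0.73 and 0.76 in Col0 and 0.39, 0.03, 0.51 and 0.30 in chl27. These ranges overlapped slightly, at 0.47 in Col0 and 0.51 in chl27. It was the one called gene that also passed within chl27 (log2 0.31, limma adjusted p 0.00286), though 0 genes did so without the replicate term. The difference was -0.33 (SE 0.08, limma adjusted p 0.0198). For trnF (ArthCt102), trnN and trnL (Arthct122) the differences were -0.37, -0.41 and -0.35.

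**Figure D2:**
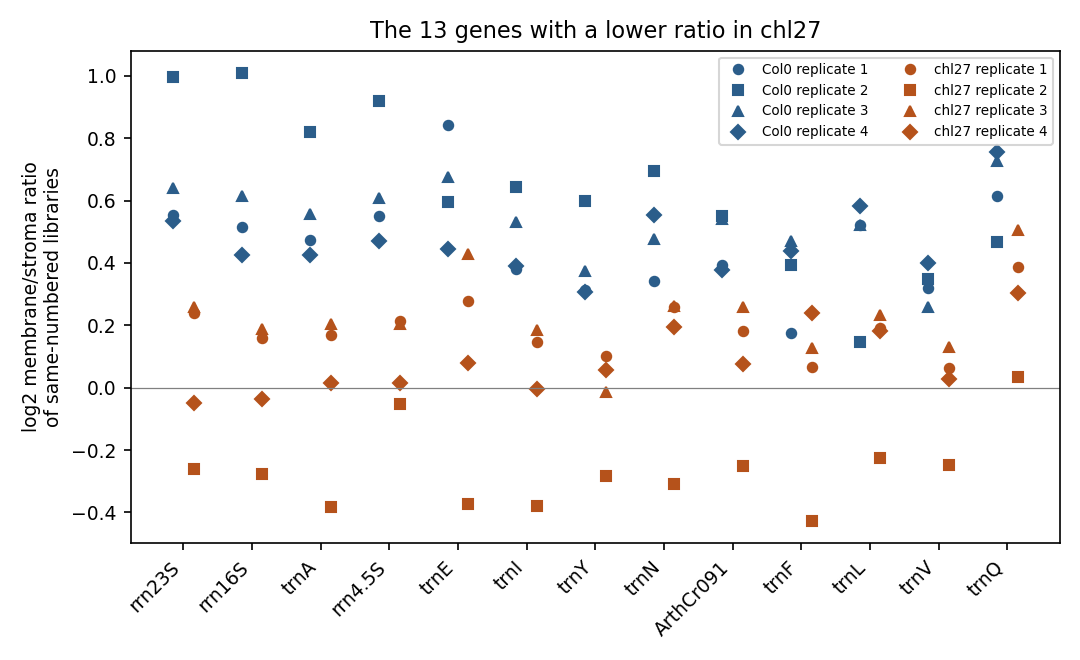
The log2 membrane/stroma ratio of same-numbered libraries for the 13 called genes, ordered by the difference between the lines. Each symbol is 1 pair of libraries, blue for Col0 and orange for chl27; all Col0 values lie above 0, and chl27 pair 2 (squares) is the lowest of the 8 values at each of the 13 genes.

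Common features of these 13 genes were read from the same libraries and are given as a description. At 10 of the 13 no chl27 pair value overlapped a Col0 value, while over all genes this held for 18.6% in that direction and for 16.8% in the other. Membrane coverage was lower in chl27 in all 4 pairs for 13 of 13, and stroma coverage was higher in all 4 pairs for 6 of 13. All Col0 pair values lay above 0 at 13 of 13 genes. Pair 2 of chl27 was the lowest of the 8 values at all 13, and below 0 at 12. With the other 3 chl27 stroma libraries alone in the fit, the log2 ratio within chl27 was above 0 at all 13 genes, between 0.06 and 0.38, against 0.33 to 0.68 in Col0.

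Windows of 500 bp placed the same difference on the map without gene borders. At a limma adjusted p of 0.05, 10 of the 259 windows were called, which is 3.86%, all lower in chl27 (98 at an unadjusted p under 0.05). Among them, 7 belonged to the 14 windows that overlap the rRNA operon. The lowest 3 all lay in rrn23S: positions 107001 to 107500 (-0.66, SE 0.19, limma adjusted p 0.0448), 105001 to 105500 (-0.64, SE 0.17, limma adjusted p 0.0382) and 106001 to 106500 (-0.64, SE 0.17, limma adjusted p 0.0382). The others, named after their values were seen, were 108001 to 108500 over trnR, 36501 to 37000 over trnfM, rps14 and trnG, and 48001 to 48500 over trnF. The first of these also covers part of the mirrored position of ArthCr091, just beyond the end of the operon as taken here. The window calls moved as well: 0 passed without chl27 stroma replicate 2, and leaving out any single library gave 0 for 10 of 16 libraries, 1 without chl27 membrane replicate 4, and 10 to 25 for the other 5. Without the replicate term, and with windows of 200 bp, 0 passed as well. The highest window, 4501 to 5000 with no annotated gene, did not pass (0.55, SE 0.33, limma adjusted p 0.198).

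By region, the mean window difference was -0.59 over the 14 operon windows, all below 0, and -0.02 over the other 35 windows of the repeat, of which 19 were below 0. It was 0.10 over the 169 windows of the large single-copy region, of which 46 were below 0, and 0.25 over the 41 windows of the small single-copy region, of which 1 was. All of these are relative to each library's own mean, so by construction lower values in one place go with higher values elsewhere. Scaling to the single-copy regions shifted the median difference of all windows from 0.10 to -0.01 and gave 23 windows, all lower in chl27. Inverted repeat coverage as a whole, relative to the single-copy regions, had a log2 ratio of 0.17, 0.34, 0.22 and 0.09 in Col0 and 0.00, -0.39, 0.05 and -0.06 in chl27. Its difference of -0.30 had the smallest exact permutation p of 0.0286 (0.129 adjusted over the 9 tests).

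**Figure D3:**
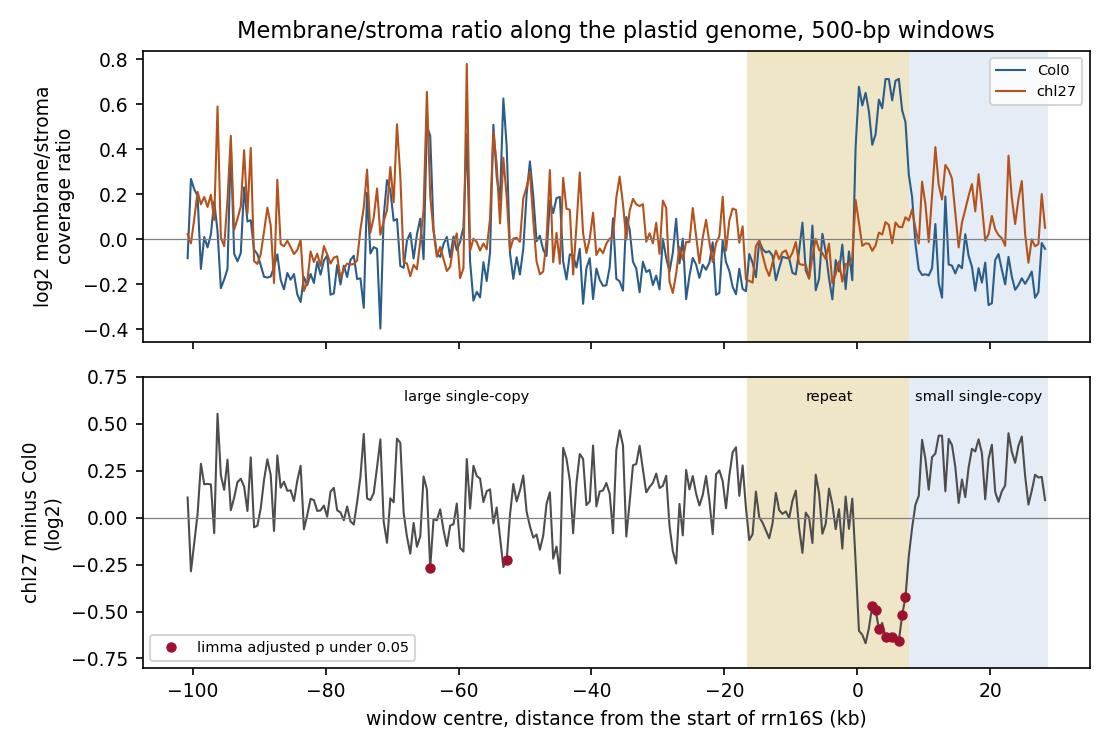
The fitted log2 membrane/stroma ratio of coverage in 500-bp windows for Col0 and chl27 (upper panel) and their difference (lower panel), against the distance of the window centre from the start of rrn16S in kb; shading marks the inverted repeat, of which 1 copy is shown, and the small single-copy region. In the rRNA operon Col0 rises to about 0.7 while chl27 stays near 0, and 7 of the 10 windows past the threshold (red) lie there.

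Protein-coding genes gave 0 calls of 79, with a median difference of 0.12. Several apoproteins that bind chlorophyll are encoded in the plastid: psaA and psaB in photosystem I, psbA, psbB, psbC and psbD in photosystem II, and petB in the cytochrome b6f complex. Of these 7, 0 passed, 6 had estimates below 0, and the median was -0.12. The gene of the D1 protein, psbA (ArthCp002), came nearest: its log2 ratio was 0.15, 0.21, 0.23 and 0.25 in Col0 and 0.10, -0.11, 0.04 and 0.03 in chl27. These values did not overlap, which in that direction held for 18.6% of all genes. The fitted difference was -0.19 (SE 0.07, limma adjusted p 0.0606), and -0.17 without chl27 stroma replicate 2 (limma adjusted p 0.167). For psbB the difference was -0.15 (limma adjusted p 0.13), for psbC -0.13 (0.155), for psbD -0.12 (0.163), for psaA -0.08 (0.322) and for psaB -0.05 (0.467), all limma adjusted. At petB it was 0.16 (limma adjusted p 0.122). The gene of the Rubisco large subunit, rbcL, had -0.23 (SE 0.08, limma adjusted p 0.0606). Its pair values were 0.12, 0.28, 0.12 and 0.17 in Col0 and 0.01, -0.16, -0.05 and -0.05 in chl27. Without chl27 stroma replicate 2 the rbcL difference was -0.19 (limma adjusted p 0.168).

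On the other side of 0, large test statistics among genes that did not pass belonged to ndhE (0.25) and atpF, of the ATP synthase (0.21), each with a limma adjusted p of 0.0606. Without chl27 stroma replicate 2 these were 0.18 and 0.16, each with a limma adjusted p of 0.179. The NADH dehydrogenase-like complex, which cycles electrons around photosystem I, has 11 plastid genes, of which 10 had estimates above 0 and 0 passed. Their median was 0.17. Estimates above 0 were also found at 60 of all 113 genes and at 56 of the 79 protein-coding genes. Most of the ndh genes lie in the small single-copy region, where 1 of 41 windows was below 0 and the mean was 0.25. Whether the NDH genes differ from their region was not tested. The ratio of ndhE in same-numbered libraries was 0.11, 0.35, 0.02 and 0.04 in chl27 and 0.01, -0.35, -0.10 and -0.03 in Col0. These values did not overlap, which in that direction held for 16.8% of all genes, and pair 2 held the extreme of each line.

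The remaining lists also gave 0 calls. Medians were -0.09 for the 15 photosystem II genes, 0.09 for the 7 genes of photosystem I and its assembly, 0.12 for the 6 cytochrome b6f genes, -0.07 for the 6 ATP synthase genes, 0.14 for the 21 ribosomal protein genes, 0.08 for the 4 subunits of the plastid-encoded polymerase and 0.09 for 7 genes that the nuclear-encoded polymerase mainly reads. The difference at rpoB was 0.03, and it was below 0 under median or single-copy scaling; at ycf2 it was -0.01. A score per library, the mean log2 relative coverage of 27 photosynthesis genes minus that of those 7 genes, differed by -0.04 in membrane (exact permutation p = 0.143), by 0.01 in stroma (p = 0.571) and by -0.05 as a membrane minus stroma value (p = 0.143). None of these passed 0.05, which does not show that the lines were alike.

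**Figure D4:**
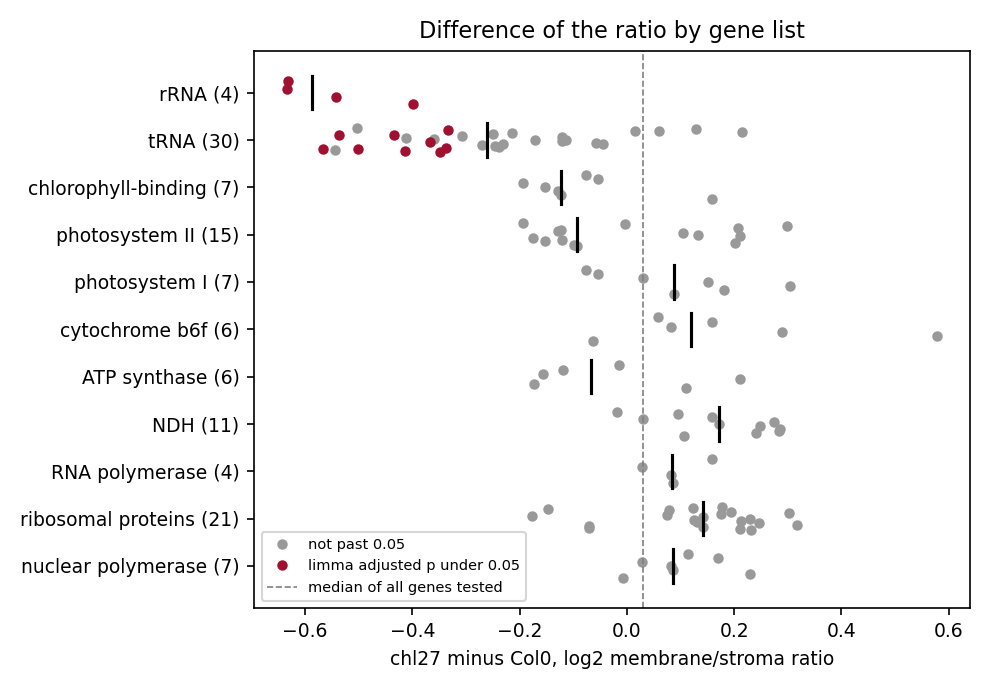
The difference between chl27 and Col0 in log2 membrane/stroma ratio for each gene (points) of 11 lists, with the number of genes in brackets, the list's median (black line) and the median of all 113 genes (dashed). Genes past a limma adjusted p of 0.05 (red) occur in the rRNA and tRNA lists only, on the low side.

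Taken fraction by fraction, the fit to all libraries gave no call. In membrane, 0 of 113 genes (0.0%) and 0 of 259 windows passed, with 23 genes and 31 windows at an unadjusted p under 0.05 and lowest limma adjusted p of 0.201 and 0.223. With all libraries numbered 2 left out, a choice made after seeing the data, 14 membrane genes passed, 11 lower and 3 higher in chl27, and 7 of them were among the 13 genes called for the ratio. The 11 were 9 tRNA genes, 1 rRNA gene and 1 protein-coding gene, and the 3 were protein-coding. The genes with the largest statistics toward lower values in chl27 were trnE (-0.31), ArthCr091 (-0.24) and trnQ (-0.17), and toward higher values atpF (0.12), rps4 (0.08) and rpl22 (0.15). At 3 genes, all tRNA genes and 2.65% of those tested, every chl27 membrane library lay below every Col0 one: trnF, trnG (ArthCt116) and trnI (ArthCt113). For trnF these were 1.23, 1.23, 1.22 and 1.17 in chl27 and 1.32, 1.53, 1.43 and 1.26 in Col0.

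Stroma likewise gave 0 of 113 genes (0.0%) and 0 windows, with 26 genes and 45 windows at an unadjusted p under 0.05. The lowest limma adjusted p were 0.157 and 0.22. At trnH (ArthCt088) the chl27 stroma values of 0.292, 0.638, 0.343 and 0.170 stood against 0.249, 0.246, 0.223 and 0.189 in Col0, a log2 difference of 0.52 (SE 0.14, limma adjusted p 0.157), and of 0.34 without chl27 stroma replicate 2 (limma adjusted p 0.755). All chl27 values but that of replicate 4 were above the Col0 range. Relative coverage of trnH was low in all 16 libraries, between 0.124 and 0.638, and the gene lies at the edge of the numbered positions. By test statistic, trnY (0.26) and atpE (0.17) were next in that direction, while rrn16S (0.37), rrn23S (0.34) and rrn4.5S (0.29) had larger estimates with larger errors. Toward lower values were ndhF (-0.19) and ndhI (-0.18). Without chl27 stroma replicate 2 these became 0.16 at trnY, 0.12 at atpE, 0.24 at rrn16S, 0.21 at rrn23S, 0.22 at rrn4.5S, -0.10 at ndhF and -0.10 at ndhI, and the trnE estimate, 0.23 with it, was 0.10. Over all genes, the membrane and the stroma estimates had opposite signs at 102 of 113. At 0 genes (0.0%) did the stroma values of the lines lie fully apart, in either direction.

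Membrane was then set against stroma within each line, in the same fit. In Col0 60 of 113 genes passed (53.1%), 26 higher and 34 lower in membrane, and in chl27 13 passed (11.5%), 5 higher and 8 lower. Within chl27 the higher genes were all tRNA genes: trnM (ArthCt104, 0.40), ArthCt100 (0.34), trnQ (0.31), trnG (ArthCt092, 0.21) and trnV (ArthCt103, 0.21). They were chosen after their values were seen. The lower ones included trnH (-0.70, at low coverage), psbB (-0.18) and rpoB (-0.11). Of the 60 genes, which were picked by their Col0 values, 58 had a smaller absolute ratio in chl27, and of all 113 genes 76 did. The count in chl27 was 8 without its stroma replicate 2 and between 6 and 17 without 1 of its other libraries. Without the replicate term the counts were 18 in Col0 and 0 in chl27. These counts do not test the difference between the lines, which is the test with 13 calls given above.

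**Figure D5:**
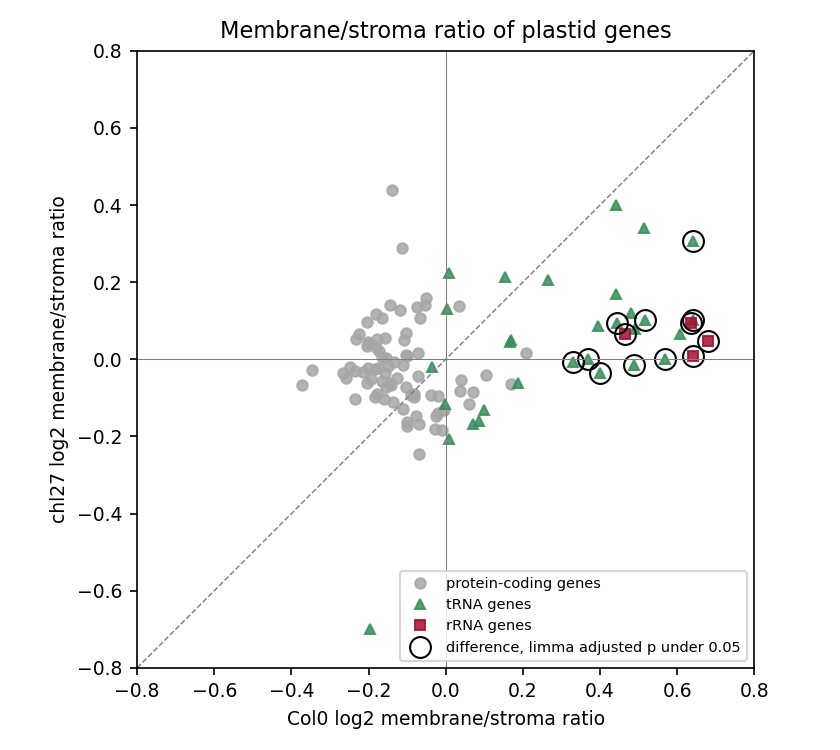
The log2 membrane/stroma ratio of each of 113 plastid genes in Col0 (horizontal) and chl27 (vertical), by type of gene, with the line of equal values dashed. The 13 circled genes, all rRNA or tRNA genes, lie between 0.33 and 0.68 in Col0 and between -0.03 and 0.31 in chl27.

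A direct comparison with chlm, a line named for the methyltransferase that makes the substrate of the cyclase, used 4 membrane and 3 stroma libraries of that line. In membrane 0 of 113 genes passed (0.0%; also 0 at an unadjusted p under 0.05, lowest limma adjusted p 0.816). In stroma and in the difference of the ratios 1 gene passed in each (0.885%), trnL (Arthct122). Its stroma coverage was higher in chl27 than in chlm by a log2 of 0.36 (limma adjusted p 0.0375), and its ratio was lower by 0.48 on the log2 scale (limma adjusted p 0.0425). Both calls were lost without the replicate term, and without chl27 stroma replicate 1, chl27 stroma replicate 2 or chlm stroma replicate 4. The ratio call was also lost without chl27 membrane replicates 2 or 4, chl27 stroma replicate 4 or any one of the 4 chlm membrane libraries. For the 4 rRNA genes the median difference of the ratios was -0.13 and for the 30 tRNA genes -0.14, against 0.02 over all genes. The line chlm was not compared with Col0 here, so the differences of chl27 and chlm from Col0 were not set against each other.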

How the data were processed

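The authors deposited coverage at each of 154477 plastid positions, 1 column per library, as whole numbers; the labels give no unit, and coverage is read from the values. Per the submitters' processing notes the tools were Trim Galore 0.4.1, Bowtie2 2.2.8.9 and bedtools 2.25.0, with build TAIR10; how reads shared by both repeat copies were placed is not given in the sources used here. One sample column (chlm stroma replicate 1) holds running positions and was left out, so 1 column was not used and 31 libraries entered the fit. Gene names come from a table of assembly TAIR10.1, whose gene positions are not printed; mirrored genes and mirrored coverage gave the same repeat axis. Of 129 plastid entries, 113 genes were tested, with 1 copy of the repeat. For tRNA symbols with several entries, the sigma factor 2 list holds the longest one.

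Mean coverage per 500-bp window or gene was divided by the library's mean and taken as log2, with no pseudocount and no filter. Group means plus replicate number were fitted with limma 3.58.1 in R 4.3.3 (lmFit, eBayes, two-sided) across all 31 libraries. Benjamini-Hochberg adjustment within each contrast used all features and a threshold of 0.05. The replicate term is in the fit because the definition of the comparison has it. Deviations of same-numbered libraries from their group means correlated at 0.216 to 0.894 between lines in membrane and -0.226 to 0.819 in stroma, and at 0.148 to 0.923 between fractions of a line. Single values were tested by exact permutation (scipy 1.17.1). Fits were tested on simulated data. For the ratio over genes, 56.5% of changes of log2 0.3 and 94% of those of log2 0.6 were recovered. Of the calls, 1.74% and 6% were false. The simulated noise was independent between genes, so these shares do not show how calls behave when many genes of a library deviate together. The members, lists and tests were chosen with earlier results of these data known.

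Named genes were the 5 highest and 5 lowest among those past the threshold, or else the 3 with the largest statistic in that direction. In addition came psbA, psbB, psbC, psbD, psaA, psaB, petB, rbcL, trnE, rrn16S, rrn23S, rpoB and ycf2. One gene that the rule names is not reported here. Genome sequence was not used here.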

Additional observations from a re-analysis of the deposited data

Results flagged for a closer look

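A library far from the other 3 of its group was flagged in 21 of 140 groups of values tested. Chance flags about 1 in 20 independent groups that were not chosen from the data. Many genes flagged here were named or called from these same libraries, so the count cannot be set against that rate. Of the 21 flags, 16 were chl27 stroma replicate 2. In that library relative coverage was high at rrn23S (1.86), rrn16S (1.81), trnA (1.82), rrn4.5S (1.68), trnE (1.72), trnI (1.67), trnN (1.66), ArthCr091 (1.56), rbcL (1.39), psbB (1.32) and trnV (Arthct121, 1.20). It was low at ndhE (0.719), atpF (0.707) and ndhI (0.665). Its rRNA operon and its inverted repeat stood at 2.18 and 1.67 times the single-copy coverage. These values belong to 1 library and share its scaling, so they are not separate observations. Elsewhere, psbB was high in chl27 membrane replicate 2 (1.10), trnE in Col0 stroma replicate 2 (1.14) and trnV (Arthct121) in Col0 membrane replicate 2 (1.23). Col0 stroma replicate 4 was low at psbD (1.03) and psaA (0.975).

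The lines differed in the log2 membrane/stroma ratio at 13 genes and 10 windows by limma. The operon value differed by -0.708 and the repeat value by -0.302, each by exact permutation before adjustment over the 9 tests. Against chlm, trnL (Arthct122) differed by 0.355 in stroma and by -0.476 in the ratio.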

How the results depend on the processing

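The 13 genes and 10 windows became 0 and 0 with no replicate block and with only the 16 libraries compared, 16 and 16 under median scaling, 22 and 23 under single-copy scaling (which moved the median of all genes from 0.03 to -0.08), and 4 and 1 with all libraries numbered 2 left out. With all numbered 4 left out they were 11 and 0, a choice made after seeing the data, as was that for number 2. A replicate block within each genotype gave 0 genes and 13 windows, and 200-bp windows gave 0. Leaving out 1 library gave 0 to 32 genes and 0 to 25 windows; a coverage minimum of 100 changed no call. All 13 gene calls thus need both the shared block and the libraries of the other lines in the fit, and end without chl27 stroma replicate 2; without the block, with the block within genotype or with the 16 libraries alone, the differences were the same and the errors changed.

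Within membrane, 0 genes became 1 under single-copy scaling and 14 without the libraries numbered 2, and 0 windows became 1 without the latter. In stroma, 0 genes became 1 under single-copy scaling or without the libraries numbered 4 and 0 to 1 on leaving out 1 library, and 0 windows became 2 under single-copy scaling or without those numbered 2. Against chlm, the 1 call in stroma and the 1 in the ratio became 0 with no replicate block, only the libraries compared, single-copy scaling, or those numbered 4 left out, and the latter 0 also with the block within genotype; leaving out 1 library gave 0 to 2 and 0 to 1.

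Exact sign flips within pairs (a replicate block) leave the operon ratio difference at -0.708 by construction, and their p cannot go below 0.125; the difference ran from -0.793 to -0.563 without 1 library. For the inverted repeat these were -0.302, -0.351 to -0.205, and -0.311 with median coverage; its stroma difference ran from -0.0344 to 0.217. The stroma score ran from -5.86e-05 to 0.0321. The other sign changes were at 5 genes. In membrane, psaA was 0.00210 without number 2 (-0.0398 to 0.00781 without 1 library), rpoB -0.0134 under median and -0.0286 under single-copy scaling, and ycf2 -0.0336 to 0.0127. In stroma, psaB was -0.0499 without number 4 (-0.0398 to 0.0242), petB 0.00942 without number 2, rpoB 0.0380, 0.0549 and 0.0220 under median scaling, single-copy scaling and without number 2 (-0.0309 to 0.0166), and ycf2 0.0371 and 0.0540 under the scalings (-0.0275 to 0.00941). As ratio differences, rpoB was -0.0514, -0.0835 and -0.00983 in the same order, and ycf2 0.0186 without number 2 (-0.0303 to 0.0174).

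With 4 libraries a group, 1 direction of uneven coverage holds 66.6% of the spread left after the block, so genes and windows are far from independent.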
